A study of Mus musculus with 8 samples.

Results

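The insulin and IGF-1 signalling core described here consists of 10 genes, taken by their symbols from the table of raw counts of a mouse muscle study, namely Igf1, Igf1r, Insr, Irs1, Irs2, Pik3r1, Akt1, Akt2, Mtor and Slc2a4. All 10 were among the 12171 genes of the table. All 10 passed the filter on low counts, as did all 12171 genes, so the filter removed none. Transcript levels of the 10 genes were compared between D-gal mice injected with MSCs and D-gal mice injected with PBS. Within the core, Irs2 was lower and Mtor was higher in D-gal + MSCs mice at an unadjusted p under 0.05 in edgeR. The other 8 genes did not pass that threshold, which 10.7% of all genes passed. The p of Irs2 was above 0.05 in an exact permutation test, and that of Mtor was above 0.05 with library totals as the scaling. None of the 10 differences passed an adjusted p of 0.05.

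Insulin and IGF-1 bind the related tyrosine kinase receptors encoded by Insr and Igf1r, which phosphorylate the docking proteins IRS1 and IRS2. The docking proteins recruit PI3-kinase, whose lipid product activates the AKT kinases. In skeletal muscle, AKT drives the glucose transporter GLUT4 to the cell surface, restrains the FoxO factors that induce atrophy genes, and activates mTOR, the kinase that stimulates protein synthesis. Much of this signalling is set by phosphorylation, which RNA-seq does not measure.

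The animals were male C57BL/6 J mice, 6 weeks old on arrival. After 1 week of acclimatisation all of them received D-gal, a sugar used to bring on ageing-like features, at 100 mg/kg subcutaneously each day for 12 weeks. D-gal + MSCs mice were injected in the hind limb muscles with mesenchymal stromal cells from human umbilical cord, at 1000000 cells per mouse in each of 6 cycles spaced 7 days apart, and D-gal + PBS mice received the same volume of PBS without cells. QUAD muscle of 4 mice per group was sequenced, with 1 library per mouse, so each comparison is of 4 D-gal + MSCs mice with 4 D-gal + PBS mice. Both groups carried D-gal, and mice without D-gal were not analysed here. The cells were injected into the muscle that was sequenced.

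Total counts were 32772221 to 40057968 in D-gal + MSCs mice and 34912348 to 39356399 in D-gal + PBS mice. Levels are expressed as CPM, counts per 1000000 after TMM scaling of the libraries, and every log2 fold change has D-gal + MSCs on top and D-gal + PBS as the base. All 8 muscle fibre markers were present, as the tissue label requires. D-gal + MSCs 4 stood apart by its scaling factor of 0.76 and by a mitochondrial share of 36.6% of counts, against 22.6% to 27.8% in the other D-gal + MSCs mice and 13.9% to 18.6% in D-gal + PBS mice. D-gal + PBS 2 stood apart by a summed adipocyte marker level of 321 CPM, against 31.8 to 61.5 CPM in the other 7 libraries, with 6 of 8 adipocyte markers in the table and Lep and Adrb3 not among them. Pathway genes whose call changed without these libraries are therefore given with and without both of them. In bulk muscle, fewer cells of a type and less RNA per cell cannot be told apart.

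Per kilobase of exon the members spanned a wide range of levels. Slc2a4, which encodes GLUT4, came first with 239 ± 19.7 CPM per kb in D-gal + MSCs mice and 242 ± 24.5 CPM per kb in D-gal + PBS mice (SD, n = 4 each). Akt2 followed with a mean over the 8 mice of 40.1 CPM per kb, then Akt1 with 18.2, Irs1 with 14.4, Insr with 8.41, Pik3r1 with 4.87, Irs2 with 4.44, Mtor with 2.91, Igf1 with 2.21 and Igf1r with 1.18 CPM per kb. Ranges over the 8 mice did not overlap between Slc2a4 and Akt2, between Akt2 and Akt1, or between Insr and Pik3r1, whereas every other pair of neighbours in this order overlapped. Per length, the muscle-enriched transporter and the AKT isoform tied to glucose uptake thus lay at the top, and the ligand and its receptor at the bottom. Raw counts of members ran from 223 for Igf1r in D-gal + PBS 4 to 29448 for Slc2a4 in the same library.

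The core as a whole was divided in direction, with 5 log2 fold changes above 0 and 5 below, where 49.5% of all genes were above and 50.5% below, and Igf1r, Pik3r1 and Akt1 moved below 0 when library totals replaced the TMM factors. Their median was 0.028, against -0.0030 over all genes, and the median size without sign was 0.093, against 0.17 over all genes. At an adjusted p under 0.05, edgeR called 0 of the 10 members and 0% of all genes, limma-voom also called 0 members and 0% of all genes, and DESeq2 called 0 members and 2.43% of all genes. At an unadjusted p under 0.05, edgeR called 2 of the 10 members, Irs2 and Mtor, where 10.7% of all genes were called, 5.64% as higher and 5.11% as lower. The thresholds of the study were a p under 0.05 before adjustment together with a log2 fold change of 0.5 or more in size, as drawn in its volcano plot for DESeq2, since its methods name no threshold. Applied to the edgeR fit, they called 1 member, Irs2, where 6.83% of all genes were called, 3.76% as higher and 3.06% as lower. The groups did not overlap for 1 member, Mtor, where 6.28% of all genes did not overlap, 3.09% as higher and 3.19% as lower. With 10 members these counts lie near the background and are no result about the core as a list.

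**Figure D1:**
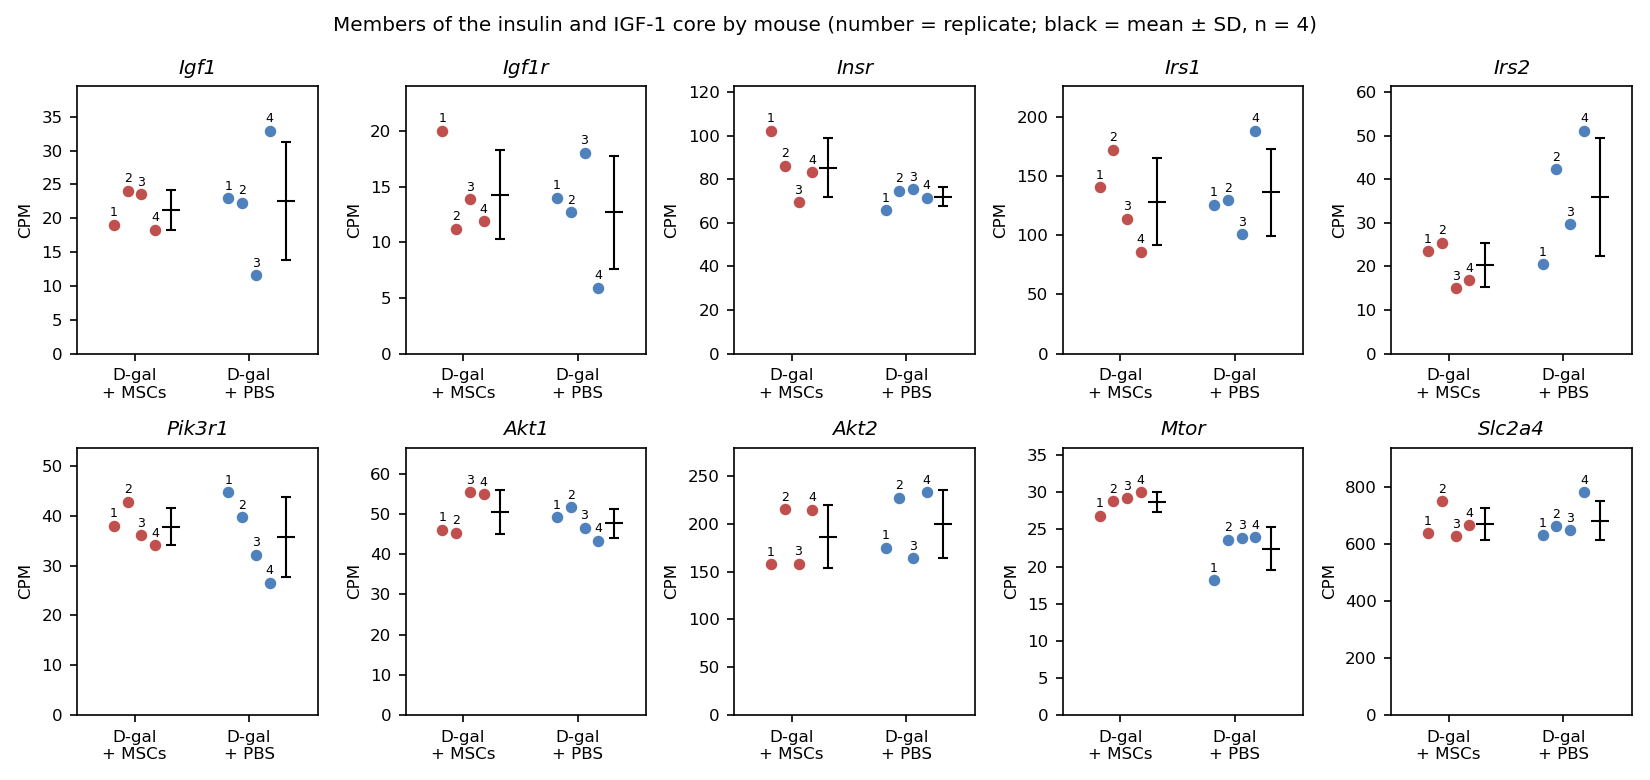
Level of each member in CPM (vertical axis, starting at 0) in each mouse, with D-gal + MSCs in red and D-gal + PBS in blue, replicate numbers above the points and mean ± SD (n = 4) in black. Irs2 was highest in D-gal + PBS 2, 3 and 4, and the Mtor points of D-gal + MSCs mice lie above all of those of D-gal + PBS mice.

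Igf1 encodes IGF-1, the growth factor made by muscle itself as well as by liver. It measured 19.0, 24.1, 23.5 and 18.3 CPM in D-gal + MSCs mice 1 to 4, against 23.0, 22.3, 11.6 and 33.0 CPM in D-gal + PBS mice 1 to 4. The D-gal + PBS mice held both the lowest and the highest level, and all D-gal + MSCs mice lay between them. The log2 fold change was -0.080 (SE 0.26, edgeR adjusted p = 0.947), with a 95% interval of -0.66 to 0.50, and its sign turned with the mice included, from -0.28 to 0.16 when each was left out in turn.

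Igf1r encodes the IGF-1 receptor. Its levels were 20.1, 11.2, 13.9 and 11.9 CPM in D-gal + MSCs mice, against 14.0, 12.7, 18.1 and 5.92 CPM in D-gal + PBS mice. D-gal + PBS 4 lay below every other mouse, and the remaining 7 levels were intermingled. The highest level was 3.39 times the lowest, and the log2 fold change was 0.17 (SE 0.31, edgeR adjusted p = 0.886, 95% interval -0.52 to 0.86). The sign turned to -0.065 without D-gal + PBS 4 and to -0.039 without D-gal + MSCs 1.

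Insr, the insulin receptor gene, measured 102, 86.2, 69.7 and 83.4 CPM in D-gal + MSCs mice, against 65.9, 74.8, 75.4 and 71.6 CPM in D-gal + PBS mice. Of the D-gal + MSCs mice, 1, 2 and 4 were above the range of the PBS-injected mice and mouse 3 was within it. On the log2 scale the difference was 0.25 (SE 0.13, edgeR unadjusted p = 0.0781, adjusted p = 0.509), with a 95% interval of -0.033 to 0.53. An exact two-sided permutation test of log2 CPM gave an unadjusted p = 0.114, where 0.0286 is the smallest value that 4 against 4 mice allow. The unadjusted edgeR p was 0.017 without D-gal + MSCs 3 (log2 fold change 0.33) and 0.251 without D-gal + MSCs 1 (0.15), so this difference depended on single mice. Within a library, the Igf1r to Insr ratio of counts was 0.196, 0.130, 0.199 and 0.143 in D-gal + MSCs mice, against 0.213, 0.170, 0.240 and 0.0827 in D-gal + PBS mice. These ratios overlapped throughout, and their log2 difference was 0.0049 (exact permutation p = 1, adjusted over the 3 ratios tested p = 1).

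Irs1 and Irs2 encode the docking proteins that couple both receptors to PI3-kinase. Their promoter windows in RefSeq (build GRCm38.p6), from 250 bases before to 50 bases after the start of transcription, are shown because both windows hold the same pair of motifs close together, while of the 2 genes Irs2 passed the study's thresholds and Irs1 did not. Irs1 lies at chr1:82291390-82291689 and Irs2 at chr8:11008880-11009179, both on the minus strand, and the sequences read 5′ to 3′ along the gene. Capitals mark CACGTG, an E-box of the kind bound by TFE3, and TGTTTTG, an element bound by FoxO1 in the Irs2 promoter of mouse liver.
Irs1: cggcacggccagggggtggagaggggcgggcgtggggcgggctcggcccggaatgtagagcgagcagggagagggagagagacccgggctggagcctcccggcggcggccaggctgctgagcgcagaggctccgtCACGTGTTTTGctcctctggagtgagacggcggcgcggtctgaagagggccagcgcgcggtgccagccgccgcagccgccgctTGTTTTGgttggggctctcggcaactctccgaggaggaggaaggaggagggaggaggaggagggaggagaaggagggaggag
Irs2: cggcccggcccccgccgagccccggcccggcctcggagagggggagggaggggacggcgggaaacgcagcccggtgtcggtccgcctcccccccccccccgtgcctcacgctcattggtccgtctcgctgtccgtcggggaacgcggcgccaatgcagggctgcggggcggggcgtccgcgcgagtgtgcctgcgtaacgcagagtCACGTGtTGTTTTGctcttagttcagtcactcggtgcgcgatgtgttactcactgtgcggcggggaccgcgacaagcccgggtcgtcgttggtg

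With bases counted from the start of transcription, CACGTG began at -44 and TGTTTTG at -37 in the Irs2 window, with 1 base between them. In the Irs1 window they began at -115 and -111 and overlapped in the run CACGTGTTTTG, and a further TGTTTTG began at -32. The motifs were searched on both strands of 32851 promoter windows of the same 300 bases, of which 7.15% held CACGTG and 6.28% held TGTTTTG. Only 9 windows (0.0274%), of 8 genes, held both with their first bases at most 10 apart. Irs1 and Irs2 are among these genes, and the distance was chosen after their windows had been seen, so this share is no test of the pair. GGGCGG, searched as well, lay in both Irs windows and in 35.7% of all windows. GTAAACA and TGACGTCA, also searched, lay in neither Irs window. Windows were found for 8 of the 10 members, Insr and Slc2a4 being the others, and no window of another member held CACGTG or TGTTTTG. A match is a match of letters, and binding was not measured.

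Irs1 measured 141, 172, 114 and 86.0 CPM in D-gal + MSCs mice, against 126, 130, 101 and 188 CPM in D-gal + PBS mice. The groups overlapped over most of their range, with the lowest level in D-gal + MSCs 4 and the highest in D-gal + PBS 4. Its log2 fold change was -0.086 (SE 0.23, edgeR adjusted p = 0.930, 95% interval -0.60 to 0.43), and it was 0.041 without D-gal + MSCs 4 and D-gal + PBS 2.

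Irs2 measured 23.5, 25.5, 15.1 and 16.9 CPM in D-gal + MSCs mice, against 20.4, 42.3, 29.7 and 51.2 CPM in D-gal + PBS mice. D-gal + PBS 2, 3 and 4 exceeded every D-gal + MSCs mouse, whereas D-gal + PBS 1 lay inside the D-gal + MSCs range. Means were 20.2 ± 5.03 CPM in D-gal + MSCs mice and 35.9 ± 13.6 CPM in D-gal + PBS mice (SD, n = 4 each), a ratio of 0.564. This was a log2 fold change of -0.83 (SE 0.28, 95% interval -1.45 to -0.20), larger in size than that of 95.7% of all genes. Its unadjusted edgeR p was 0.0144 and its adjusted p was 0.325, and the DESeq2 adjusted p was 0.0826.

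The lower level of Irs2 kept its sign when each mouse was left out in turn, between -1.01 without D-gal + PBS 1 and -0.60 without D-gal + PBS 4. Its unadjusted p stayed under 0.05 in 7 of these 8 fits, the exception being 0.051 without D-gal + MSCs 4. Without D-gal + MSCs 4 and D-gal + PBS 2 the log2 fold change was -0.66 (edgeR unadjusted p = 0.104), and an exact permutation test of log2 CPM over all 8 mice gave an unadjusted p = 0.0857. Of the 6 measured adipocyte markers, 5 had negative log2 fold changes and 0 passed the study's thresholds. Their sum was 31.8 to 61.5 CPM in D-gal + MSCs mice and 35.0 to 321 CPM in D-gal + PBS mice. Summed fibro-adipogenic markers, all 8 of them with negative log2 fold changes and 4 passing the study's thresholds, were 920.4 to 2034 CPM in D-gal + MSCs mice and 1640.3 to 2855 CPM in D-gal + PBS mice. Summed macrophage markers, 7 of 8 of them with negative log2 fold changes and 3 passing those thresholds, were 53.1 to 133 CPM in D-gal + MSCs mice and 93.2 to 148 CPM in D-gal + PBS mice. In D-gal + PBS mice 1 to 4 the adipocyte sums were 35.0, 321, 44.0 and 41.9 CPM. Fibro-adipogenic sums were 2855, 2505, 2308 and 1640.3 CPM, and macrophage sums were 148, 144, 93.2 and 99.2 CPM. Irs2 in the same 4 mice was 20.4, 42.3, 29.7 and 51.2 CPM. The part of other cell types in the Irs2 difference was not tested.

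A ratio within a library does not depend on library scaling. The Irs2 to Irs1 ratio of counts was 0.167, 0.148, 0.132 and 0.197 in D-gal + MSCs mice, against 0.163, 0.326, 0.294 and 0.272 in D-gal + PBS mice. As for Irs2 alone, D-gal + PBS 2, 3 and 4 exceeded all D-gal + MSCs mice and D-gal + PBS 1 did not. The log2 difference was -0.68 (exact two-sided permutation p = 0.0857, adjusted over the 3 ratios p = 0.257). It ran from -0.90 to -0.56 when each mouse was left out in turn. In these 8 tests the unadjusted exact permutation p reached 0.143 and was under 0.05 in 1. That 1 test left out D-gal + PBS 1, the D-gal + PBS mouse inside the D-gal + MSCs range. Its exact permutation p of 0.0286 is the smallest allowed there, and the groups no longer overlapped.

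**Figure D2:**
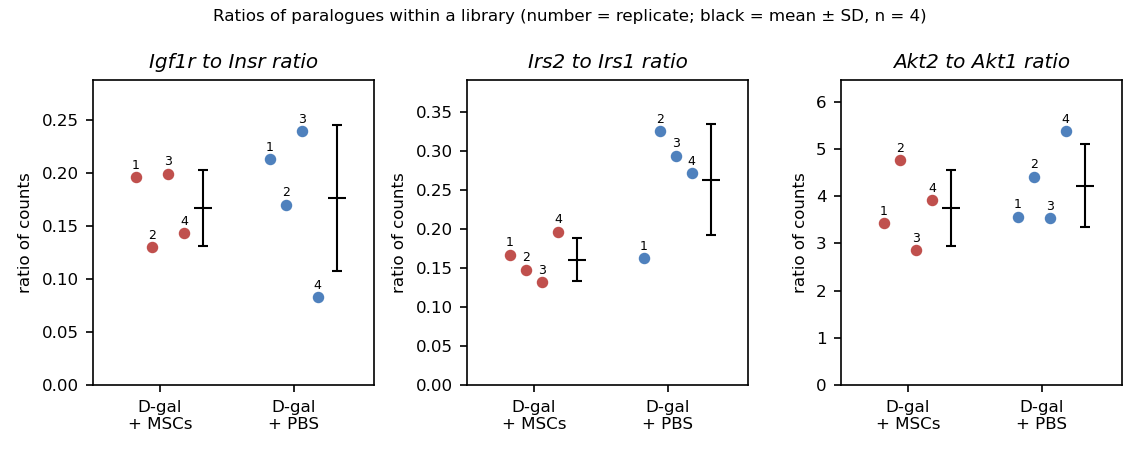
Ratios of raw counts within each library (vertical axes, no unit, starting at 0) for Igf1r to Insr, Irs2 to Irs1 and Akt2 to Akt1, with D-gal + MSCs in red, D-gal + PBS in blue, replicate numbers above the points and mean ± SD (n = 4) in black. The Irs2 to Irs1 ratio lies between 0.132 and 0.197 in D-gal + MSCs mice and reaches 0.326 in D-gal + PBS mice, with D-gal + PBS 1 inside the D-gal + MSCs range, and the other ratios overlap as well.

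Pik3r1 encodes the p85α regulatory subunit of PI3-kinase, which binds the docking proteins. It measured 38.0, 42.9, 36.1 and 34.2 CPM in D-gal + MSCs mice, against 44.8, 39.7, 32.2 and 26.6 CPM in D-gal + PBS mice. The D-gal + PBS mice spanned a wider range, which held all D-gal + MSCs mice. Between the groups the log2 fold change was 0.077 (SE 0.16, edgeR adjusted p = 0.905, 95% interval -0.27 to 0.43).

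Akt1 and Akt2 encode kinases downstream of PI3-kinase, of which AKT2 is the isoform chiefly tied to insulin-stimulated glucose uptake. Akt1 measured 46.1, 45.3, 55.4 and 54.9 CPM in D-gal + MSCs mice, against 49.1, 51.6, 46.5 and 43.4 CPM in D-gal + PBS mice. D-gal + MSCs 3 and 4 were the highest of the 8 mice, and the other D-gal + MSCs mice lay within the D-gal + PBS range. Akt1 had a log2 fold change of 0.081 (SE 0.12, edgeR adjusted p = 0.848, 95% interval -0.17 to 0.34).

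Akt2 measured 158, 216, 159 and 215 CPM in D-gal + MSCs mice, against 175, 228, 164 and 233 CPM in D-gal + PBS mice. In both groups mice 2 and 4 were high and mice 1 and 3 were low. Akt2 had a log2 fold change of -0.099 (SE 0.17, edgeR adjusted p = 0.876, 95% interval -0.46 to 0.27). The Akt2 to Akt1 ratio of counts was 3.43, 4.76, 2.86 and 3.91 in D-gal + MSCs mice, against 3.56, 4.41, 3.53 and 5.38 in D-gal + PBS mice. The ratios overlapped, with a log2 difference of -0.18 (exact two-sided permutation p = 0.429, adjusted over the 3 ratios p = 0.644).

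Mtor encodes the kinase shared by the complexes mTORC1 and mTORC2. It measured 26.9, 28.8, 29.2 and 30.0 CPM in D-gal + MSCs mice, against 18.1, 23.6, 23.9 and 24.0 CPM in D-gal + PBS mice. Every D-gal + MSCs mouse exceeded every D-gal + PBS mouse, and within each group the levels were close except for D-gal + PBS 1. Means were 28.7 ± 1.34 CPM in D-gal + MSCs mice and 22.4 ± 2.86 CPM in D-gal + PBS mice (SD, n = 4 each), a ratio of 1.28. This was a log2 fold change of 0.36 (SE 0.12, 95% interval 0.085 to 0.63), with an unadjusted edgeR p of 0.0146, an adjusted p of 0.325 and a DESeq2 adjusted p of 0.204. An exact two-sided permutation test of log2 CPM gave an unadjusted p = 0.0286, the smallest it allows.

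The difference of Mtor kept its sign and an unadjusted p under 0.05 in all 8 fits that left out a mouse, from 0.28 without D-gal + PBS 1 to 0.40 without D-gal + PBS 3. It was 0.36 (edgeR unadjusted p = 0.0413) without D-gal + MSCs 4 and D-gal + PBS 2. With library totals in place of TMM factors it was 0.17 (edgeR unadjusted p = 0.305), a scaling that moved the median of all genes to -0.19. Subtracting that median from the value of Mtor gives 0.36. This step largely undoes the change of scaling, so it is no separate test of Mtor. Against library totals, D-gal + MSCs 4 held 785 Mtor counts of 34408230 and D-gal + PBS 2 held 941 of 34912348, so the groups overlapped. The separation of the groups and the exact permutation p of 0.0286 thus apply to TMM-scaled levels. The mitochondrial share of counts, which enters the library totals, was 22.6% to 36.6% in D-gal + MSCs mice and 13.9% to 18.6% in D-gal + PBS mice. The part of that share in the change was not tested.

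Slc2a4 encodes GLUT4, the insulin-responsive glucose transporter of muscle and fat. It measured 638, 749, 627 and 666 CPM in D-gal + MSCs mice, against 629, 662, 649 and 781 CPM in D-gal + PBS mice. The groups overlapped, and the highest level was only 1.25 times the lowest, the narrowest spread of any member. Slc2a4 had a log2 fold change of -0.022 (SE 0.13, edgeR adjusted p = 0.967), and its 95% interval of -0.32 to 0.27 does not reach the 0.5 of the study's thresholds in either direction. The same held for the intervals of Pik3r1, Akt1 and Akt2, whereas those of Igf1, Igf1r, Insr and Irs1 reached past 0.5 on at least 1 side.

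**Figure D3:**
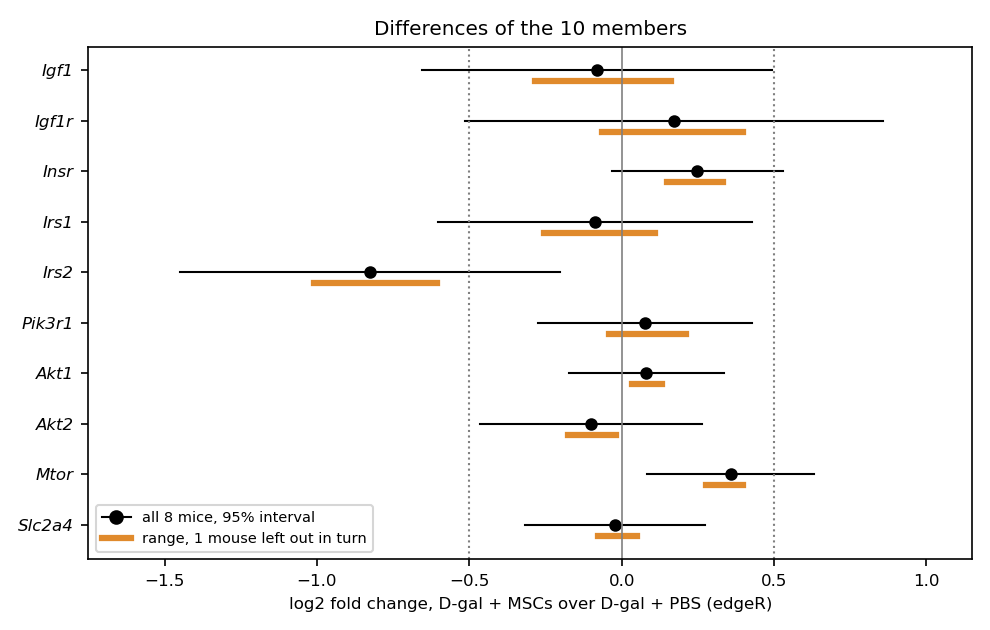
Log2 fold change of each member, D-gal + MSCs over D-gal + PBS (horizontal axis), with its 95% interval from edgeR in black and, in orange, the range when each mouse was left out in turn. Dotted lines mark -0.5 and 0.5. The intervals of Irs2 (-1.45 to -0.20) and Mtor (0.085 to 0.63) do not include 0 before adjustment.

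The spread between mice of a group was unequal across members. On the log2 scale the SD of Mtor was 0.068 in D-gal + MSCs mice and 0.20 in D-gal + PBS mice, and that of Igf1 was 0.20 in D-gal + MSCs mice and 0.62 in D-gal + PBS mice. A single mouse, D-gal + PBS 4, held the highest level of Igf1, Irs1, Irs2, Akt2 and Slc2a4 and the lowest level of Igf1r, Pik3r1 and Akt1. D-gal + PBS 3 held the lowest level of Igf1, and D-gal + PBS 1 held the lowest levels of Insr and Mtor and the highest of Pik3r1. D-gal + MSCs 1 held the highest levels of Igf1r and Insr. D-gal + PBS 4 thus stood at an end of the range for 8 of the 10 members. The share of all genes for which it did so was not computed, so this count is no result particular to the core.

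**Figure D4:**
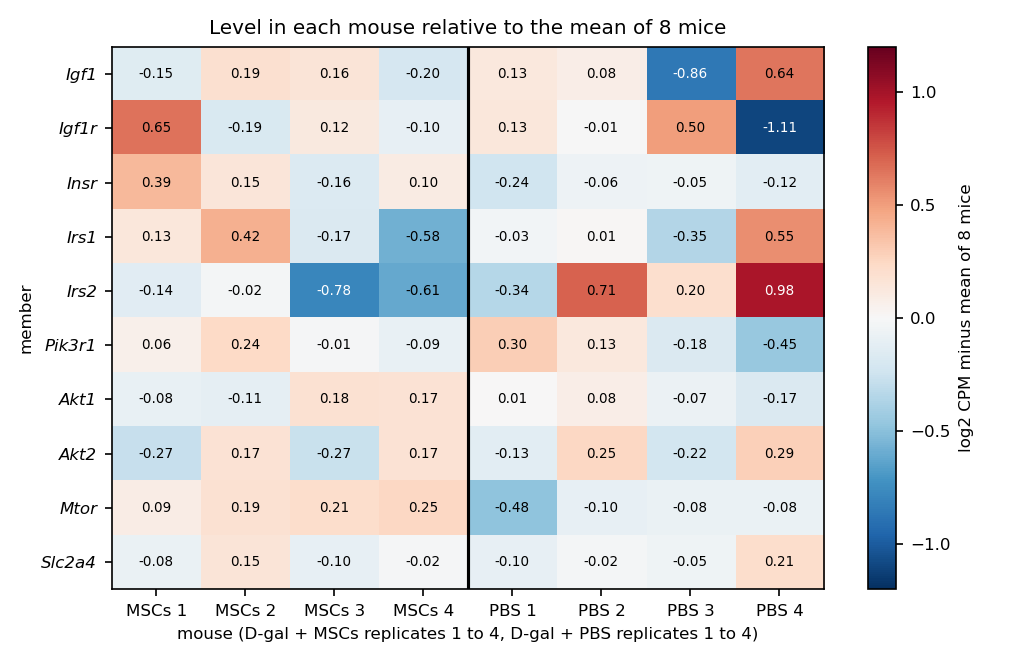
Log2 CPM of each member (down the page) in each mouse (across, D-gal + MSCs 1 to 4 on the left and D-gal + PBS 1 to 4 on the right) minus its mean over the 8 mice, with red above and blue below the mean. D-gal + PBS 4 runs from -1.11 for Igf1r to 0.98 for Irs2.

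Over the 8 mice, the 45 pairs of members were compared by the correlation of their log2 CPM, and 22 of the 45 Pearson coefficients were positive. In exact permutation tests 5 pairs had p under 0.05 and 0 pairs passed after adjustment over the 45. The share of pairs of all genes with such a p was not computed, so this count is no result particular to the core. The receptor gene Igf1r ran against Akt2, with Pearson's r = -0.778 (exact permutation p = 0.00243, adjusted p = 0.109) and Spearman's rho = -0.857 (exact permutation p = 0.0107, adjusted p = 0.314). Leaving out the 2 mice farthest from the median of Igf1r gave r = -0.756, and r was -0.766 after each group had been centred on its mean. Igf1r also ran against Slc2a4, with r = -0.827 (exact permutation p = 0.00528, adjusted p = 0.119) and rho = -0.786 (exact permutation p = 0.0279, adjusted p = 0.314), and this r was -0.602 without the 2 farthest mice. Akt2 and Slc2a4 varied together, with r = 0.75 (exact permutation p = 0.0151, adjusted p = 0.226) and rho = 0.81 (exact permutation p = 0.0218, adjusted p = 0.314), and r was 0.672 without the 2 mice farthest from the median of Akt2. With 4 mice per group no coefficient was computed within a group, and levels in 1 library share its scaling.

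For the members with the smallest p, the genes with the most similar profile were sought by the root mean square distance of centred log2 CPM over the 8 mice, among 12090 genes with a mean of at least 1 CPM. Nearest to Irs2 were Ppp1r10 (distance 0.16), Dnase1 (0.18) and Amd2 (0.19), where the SD of Irs2 itself was 0.57. Nearest to Mtor were Mrs2 (0.076), Hat1 (0.085) and Fam185a (0.087), where the SD of Mtor was 0.22. Nearest to Insr were Scaf11 (0.055), Hcfc2 (0.060) and Ccnl2 (0.066), where the SD of Insr was 0.19.

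The wider pathway was followed in 6 lists holding 128 genes, of which 117 were measured, including the 10 of the core. At the study's thresholds 3 of the 117 were higher and 6 were lower, Irs2 among them, and 108 passed neither way. This was 7.69% of the list genes, against 6.83% of all genes. At an adjusted p under 0.05, edgeR called 0 of the 117 and DESeq2 called 2, Grb14 and Tbc1d1, where DESeq2 called 2.43% of all genes. At the study's thresholds DESeq2 called 12 of the 117, the same 9 as edgeR together with Igfbp6, Castor1 and Foxo6, where it called 7.85% of all genes. Without D-gal + MSCs 4, Grb14 and Tbc1d1 were also the only list genes past the study's thresholds. Log2 fold changes were above 0 for 58 and below 0 for 59 of the genes.

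Of the ligands and binding proteins, 9 of 15 were measured, 1 was higher, 1 was lower and 7 passed neither way, with a median log2 fold change of -0.26 against -0.0030 over all genes. The gene that passed lower was Igfbp4, an IGF-binding protein that sequesters the ligand, with 34.6, 38.0, 47.6 and 26.4 CPM in D-gal + MSCs mice, against 64.9, 58.4, 48.5 and 40.0 CPM in D-gal + PBS mice. The 3 highest levels were in D-gal + PBS mice, and D-gal + PBS 4 lay within the D-gal + MSCs range. Its log2 fold change was -0.53 (SE 0.19, edgeR unadjusted p = 0.0187, adjusted p = 0.359). It was -0.35 (edgeR unadjusted p = 0.101) without D-gal + MSCs 4 and D-gal + PBS 2, -0.40 without D-gal + MSCs 4, -0.48 without D-gal + PBS 2 and -0.41 (edgeR unadjusted p = 0.0768) without D-gal + PBS 1, so its call was lost in each of these fits. Igfals, which encodes the acid-labile subunit that stabilises circulating IGF-1 complexes, averaged 5.58 ± 1.46 CPM in D-gal + MSCs mice and 3.73 ± 0.467 CPM in D-gal + PBS mice (SD, n = 4 each). It passed higher, with a log2 fold change of 0.58 (SE 0.24, edgeR unadjusted p = 0.0323), and the p was 0.0572 in edgeR, again unadjusted, without D-gal + MSCs 4 and D-gal + PBS 2. The p of Igfals stayed under 0.05 in 3 of the 8 fits that left out a mouse. Igfbp5, with a log2 fold change of -0.40 (edgeR unadjusted p = 0.0784), and Igfbp6, with -0.61 (edgeR unadjusted p = 0.102), did not pass in edgeR, whereas Igfbp6 passed in DESeq2 (-0.60, DESeq2 unadjusted p = 0.0473).

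Of the receptors and adaptors, 19 of 21 were measured, 1 was higher, 2 were lower and 16 passed neither way, with a median log2 fold change of -0.066. Grb14 encodes an adaptor that binds the activated insulin receptor and inhibits its kinase. It measured 17.2, 17.6, 27.2 and 32.9 CPM in D-gal + MSCs mice, against 12.8, 8.44, 12.03 and 13.1 CPM in D-gal + PBS mice. Every D-gal + MSCs mouse exceeded every D-gal + PBS mouse, and the log2 fold change was 1.04 (SE 0.23, edgeR unadjusted p = 0.000841, adjusted p = 0.145, DESeq2 adjusted p = 0.0031). It was 0.71 (edgeR unadjusted p = 0.00453) without D-gal + MSCs 4 and D-gal + PBS 2. The genes that passed lower were Irs2 and Socs3, a cytokine-induced suppressor that also targets IRS proteins.

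Socs3 measured 1.87, 3.62, 3.73 and 2.37 CPM in D-gal + MSCs mice, against 4.24, 13.4, 4.62 and 3.16 CPM in D-gal + PBS mice. The difference of -1.13 on the log2 scale (SE 0.45, edgeR unadjusted p = 0.0298) rested on D-gal + PBS 2, without which it was -0.46 (edgeR unadjusted p = 0.172), and it was -0.38 (edgeR unadjusted p = 0.287) without D-gal + MSCs 4 as well. The adaptor gene Sh2b1, which promotes insulin receptor signalling, was below every D-gal + PBS mouse in all D-gal + MSCs mice, with a log2 fold change of -0.24 (edgeR unadjusted p = 0.0583). Sos1, which links receptors to Ras, had a log2 fold change of 0.29 (edgeR unadjusted p = 0.0697).

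None of the 18 genes of PI3-kinase and AKT regulation passed the study's thresholds in edgeR, with a median log2 fold change of 0.079. The smallest p was that of Pik3cb, the p110β catalytic subunit, with 11.7, 9.29, 12.1 and 12.1 CPM in D-gal + MSCs mice, against 8.62, 7.61, 7.41 and 8.49 CPM in D-gal + PBS mice. The groups did not overlap, and the log2 fold change was 0.49 (SE 0.15, edgeR unadjusted p = 0.00747, DESeq2 adjusted p = 0.0839), just short of the 0.5 required. Its unadjusted edgeR p was 0.0507 without D-gal + MSCs 4 and D-gal + PBS 2. The next smallest p were those of Inppl1, a lipid phosphatase (0.26, edgeR unadjusted p = 0.0644), and Pik3ca, the p110α catalytic subunit (0.21, edgeR unadjusted p = 0.121).

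Of the mTOR pathway genes, 32 of 33 were measured, 0 were higher, 2 were lower and 30 passed neither way, Mtor included, with a median log2 fold change of -0.025. The lower genes were the paralogues Ddit4l and Ddit4, which encode the stress-induced mTORC1 inhibitors REDD2 and REDD1. Ddit4l measured 474, 528, 430 and 301 CPM in D-gal + MSCs mice, against 591, 740, 653 and 555 CPM in D-gal + PBS mice. All D-gal + MSCs mice lay below all D-gal + PBS mice, and the log2 fold change was -0.55 (SE 0.18, edgeR unadjusted p = 0.0107, adjusted p = 0.293). Ddit4 measured 6.01, 6.73, 6.81 and 3.06 CPM in D-gal + MSCs mice, against 9.02, 12.5, 6.74 and 8.46 CPM in D-gal + PBS mice, with a log2 fold change of -0.70 (SE 0.27, edgeR unadjusted p = 0.0249). Without D-gal + MSCs 4 and D-gal + PBS 2 the values were -0.33 (edgeR unadjusted p = 0.0592) for Ddit4l and -0.31 (edgeR unadjusted p = 0.177) for Ddit4. The arginine sensor gene Castor1 (-0.57, edgeR unadjusted p = 0.0506) and the translation repressor gene Eif4ebp2 (-0.27, edgeR unadjusted p = 0.0916) did not pass in edgeR. Castor1 lay close to the threshold, and it passed in DESeq2 (-0.56, DESeq2 unadjusted p = 0.0452) and without D-gal + MSCs 4 and D-gal + PBS 2 (-0.70, edgeR unadjusted p = 0.0462).

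Of the genes of glucose uptake and glycogen, 24 of 26 were measured, 1 was higher, 1 was lower and 22 passed neither way, with a median log2 fold change of -0.0070. Tbc1d1 encodes a Rab GTPase-activating protein that holds back GLUT4 vesicles until AKT or AMPK phosphorylates it. It measured 69.8, 80.2, 40.7 and 54.3 CPM in D-gal + MSCs mice, against 35.0, 22.8, 24.7 and 45.3 CPM in D-gal + PBS mice. Only D-gal + PBS 4 reached into the D-gal + MSCs range, and the log2 fold change was 0.94 (SE 0.26, edgeR unadjusted p = 0.00465, adjusted p = 0.227, DESeq2 adjusted p = 0.0162). Ppp1r3c, a subunit that targets protein phosphatase 1 to glycogen, measured 231, 425, 205 and 140.0 CPM in D-gal + MSCs mice, against 401, 491, 323 and 515 CPM in D-gal + PBS mice. Ppp1r3c had a log2 fold change of -0.79 (SE 0.31, edgeR unadjusted p = 0.0274), and it was -0.53 (edgeR unadjusted p = 0.109) without D-gal + MSCs 4 and D-gal + PBS 2. Its p stayed under 0.05 in 3 of the 8 fits that left out a mouse. The glycogen phosphorylase gene Pygm (-0.43, edgeR unadjusted p = 0.0335) and Lnpep, an aminopeptidase carried in GLUT4 vesicles (0.29, edgeR unadjusted p = 0.0291), had smaller differences than the thresholds require.

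None of the 15 FoxO factors and targets passed the study's thresholds in edgeR, with a median log2 fold change of 0.086. Pdk4, the pyruvate dehydrogenase kinase induced by FoxO factors in fasting, measured 251, 209, 373 and 861 CPM in D-gal + MSCs mice, against 58.0, 89.3, 347 and 158 CPM in D-gal + PBS mice. D-gal + PBS 3 alone reached into the D-gal + MSCs range, and the log2 fold change was 1.38 (SE 0.70, edgeR unadjusted p = 0.0899). It was 0.77 (edgeR unadjusted p = 0.29) without D-gal + MSCs 4 and 2.06 (edgeR unadjusted p = 0.0125) without D-gal + PBS 3, and limma-voom gave 1.49 (limma-voom unadjusted p = 0.0219), so whether Pdk4 passed depended on single mice and on the fit. Foxo6 (0.59, edgeR unadjusted p = 0.0584) passed in DESeq2 (0.59, DESeq2 unadjusted p = 0.0437) and not in edgeR. Cdkn1b, a cell cycle inhibitor (0.21, edgeR unadjusted p = 0.203) and Foxo1 (-0.25, edgeR unadjusted p = 0.224) passed in neither.

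**Figure D5:**
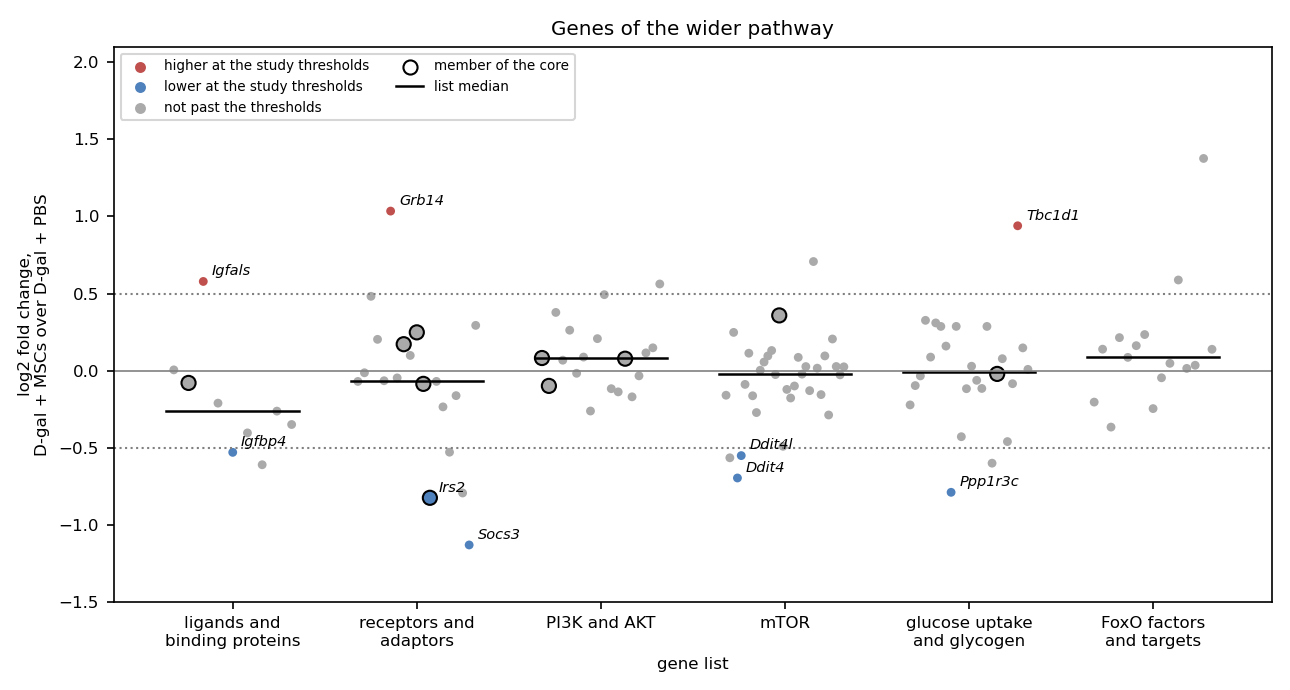
Log2 fold change, D-gal + MSCs over D-gal + PBS (vertical axis), of the 117 measured genes of the 6 pathway lists, with genes higher at the study's thresholds in red, lower in blue and the rest in grey, members of the core ringed and each list's median as a bar. The 9 genes that passed in edgeR are named, and 5 of the 6 medians lie between -0.066 and 0.086.

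Some fibre type, vascular and erythroid markers passed the study's thresholds. The 9 markers of slow and oxidative fibres all had positive log2 fold changes, 3 of them past the study's thresholds. They summed to 520.4 to 4695 CPM in D-gal + MSCs mice and 145 to 503 CPM in D-gal + PBS mice. The sum of 4695 CPM was that of D-gal + MSCs 4, and the other D-gal + MSCs mice lay at 520.4 to 1750 CPM. The 8 endothelial markers all had positive log2 fold changes, 2 of them past those thresholds, and they summed to 510.4 to 893 CPM in D-gal + MSCs mice and 341 to 660.0 CPM in D-gal + PBS mice. The 5 erythroid markers all had negative log2 fold changes, 1 of them past those thresholds, and they summed to 38.4 to 223 CPM in D-gal + MSCs mice and 180.3 to 575 CPM in D-gal + PBS mice. Of the markers of satellite cells 0 of 5 passed, of smooth muscle 0 of 6 and of Schwann cells 1 of 5. The part of all these markers in the values of the core was not tested.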

How the data were processed

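RNA from QUAD muscle of 4 D-gal + MSCs and 4 D-gal + PBS mice was sequenced. The deposited values are the authors' raw counts per gene, made by aligning reads to GRCm39 with HISAT2 (version not given). Which tool, annotation and strand setting produced the counts is not given in the sources used here, so reads of overlapping genes cannot be assigned to a strand. Replicates are separate mice.

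Counts were tested on the whole table of 12171 genes in R 4.3.3 with edgeR 4.0.16 (filterByExpr, TMM factors of 0.760 to 1.14, robust quasi-likelihood F test, group as the only term), with Benjamini-Hochberg adjustment across the whole table. An SE is the log2 fold change divided by the square root of F. Unadjusted p-values of single genes are named as such. The SE takes in counting error as well as the spread between mice, which were not separated. Log2 CPM used a prior count of 2, and ratios of counts used 0.5 as a pseudocount in their logarithm. Single values were compared by exact permutation over the 70 assignments of the mice. Lengths are exonic lengths of GENCODE vM21 and promoters are RefSeq windows on GRCm38.p6, matched by symbol, with no coordinates taken across builds.

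Named genes are the 10 members, up to 4 further genes per pathway list with the smallest unadjusted p, list genes past the study's thresholds, and the 3 nearest profiles of the 3 members with the smallest p. A gene that this rule names is not reported here. The members and lists were chosen with earlier results of these data known. Alternatives were median-of-ratios factors, library totals, DESeq2 1.42.0, limma-voom (limma 3.58.1), a fit that was not robust, other filters, leaving out mitochondrially encoded genes, the replicate number as a block, each mouse left out, and D-gal + MSCs 4 and D-gal + PBS 2 left out together. The edgeR, DESeq2 and limma-voom fits were tested on simulated counts with planted differences. The permutation tests, ratios, correlations, profile distances and promoter search were not tested in this way.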

Additional observations from a re-analysis of the deposited data

Results flagged for a closer look

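Among 74 sets of 4 mice examined (the 10 members, the named pathway genes and the 3 ratios, in each group), 4 held a mouse whose gap to its nearest neighbour exceeded Dixon's critical value of 0.829 of the range. Chance gives about 1 in 20 such sets. Mtor in D-gal + PBS 1 was 18.1 CPM, while the other D-gal + PBS mice lay at 23.6 to 24.0 CPM. Pik3cb in D-gal + MSCs 2 was 9.29 CPM, while the other D-gal + MSCs mice lay at 11.7 to 12.1 CPM. Socs3 in D-gal + PBS 2 was 13.4 CPM, while the other D-gal + PBS mice lay at 3.16 to 4.62 CPM. Lnpep in D-gal + PBS 3 was 73.2 CPM, while the other D-gal + PBS mice lay at 58.4 to 60.8 CPM.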

How the results depend on the processing

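Genes called at an adjusted p under 0.05 numbered 0 in edgeR with 1308 at an unadjusted p under 0.05, and 7 with median-of-ratios factors, 7 with library totals, 7 without mitochondrially encoded genes, 6 with at least 10 counts in every library, 0 with limma-voom and 296 with DESeq2. Leaving out each mouse in turn gave 0 to 14. Members called at that threshold numbered 0 in edgeR, DESeq2 and limma-voom. Calls at the study's thresholds numbered 831, 535 without D-gal + MSCs 4 and D-gal + PBS 2, and 612 to 957 with 1 mouse left out. Among them 1 member was called, 0 without both mice and 0 to 1 with 1 mouse left out (0 without D-gal + MSCs 4), and 9 pathway genes (12 in DESeq2 and 10 in limma-voom), 3 without both mice and 2 to 13 with 1 left out (2 without D-gal + MSCs 4). With library totals the calls split into 201 higher and 761 lower (20.9% higher), against 458 and 373 (55.1%) with TMM factors.

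Signs turned for Igf1 (0.011 in limma-voom, 0.0024 as a difference of log2 CPM), for Irs1 without both mice (0.041), and with library totals for Igf1r (-0.022), Pik3r1 (-0.11) and Akt1 (-0.11), a scaling that moved the median of all genes to -0.19. Subtracting that median, which largely undoes the change of scaling, gives 0.16 for Igf1r, 0.078 for Pik3r1 and 0.072 for Akt1. The p of Irs2 rose above 0.05 without D-gal + MSCs 4 (-0.75, edgeR unadjusted p = 0.051) and without both mice (-0.66, edgeR unadjusted p = 0.104). It was also above 0.05 in the permutation test (-0.77, exact permutation unadjusted p = 0.0857). The p of Mtor rose above 0.05 with library totals (0.17, edgeR unadjusted p = 0.305). With 1 mouse left out the ranges were -0.28 to 0.16 for Igf1, -0.065 to 0.40 for Igf1r, 0.15 to 0.33 for Insr, -0.25 to 0.11 for Irs1, -1.01 to -0.60 for Irs2, -0.042 to 0.21 for Pik3r1, 0.033 to 0.13 for Akt1, -0.17 to -0.017 for Akt2, 0.28 to 0.40 for Mtor and -0.076 to 0.051 for Slc2a4. For the log2 ratios they were -0.32 to 0.19 for Igf1r to Insr, -0.90 to -0.56 for Irs2 to Irs1 and -0.30 to -0.053 for Akt2 to Akt1. The cause of these changes was not tested.

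Nothing in the labels says that equal replicate numbers pair mice, and deviations of same-numbered mice correlated at -0.0027 to 0.22, with 2 of 4 best with their own number. With the replicate number as a block, 78 genes passed an adjusted p under 0.05, and Irs2 was -0.78 (edgeR unadjusted p = 0.0352), Mtor 0.37 (edgeR unadjusted p = 0.0105) and Insr 0.24 (edgeR unadjusted p = 0.0976). An alternative without a filter changed 0 genes.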
